A study of Mus musculus with 99 samples.

Results

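The regions described are 8519 H3K27me3 peaks called in RING1B I53S mouse embryonic stem cells (mESCs) with OHT, out of 18909 H3K27me3 peaks of that library (45.1%). They were chosen by their position: a peak was taken when it shared not a single bp with any of the 18245 H3K27me3 peaks of Parental cells without OHT and with none of the 19761 of RING1B WT cells with OHT. They are called new peaks here, a name for this rule and not for a gain in signal, since the lists give places and scores and no reads. The other 10390 peaks of the library overlap a comparator peak.

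All cells derive from 1 conditional line, ROSA26::creERT2 RING1A-/-; RING1B fl/fl, which lacks RING1A in every group. A dose of 0.5 µM OHT (4-hydroxytamoxifen) for 72 h activates Cre and deletes the endogenous RING1B, and ethanol is the vehicle (-OHT). Parental cells carry no rescue construct, so that with OHT they have neither RING1A nor RING1B, whereas RING1B WT and RING1B I53S cells stably express FLAG-HA-tagged RING1B, wild-type or with the I53S missense change of the RING domain, made to remove its ubiquitin ligase activity, from an integrated vector in a selected clone. H3K27me3 was profiled in 1 library per condition, and Parental +OHT, which the rule did not use, is a further condition. RNA was sequenced in 12 libraries, 2 biological replicates for each of 3 lines with and without OHT, at 8140106 to 12743460 counted reads per library. MTF2 KO derivatives of the 3 lines were profiled for H3K27me3 and SUZ12. All 8 pluripotency markers listed were expressed in every RNA library: Pou5f1, a transcription factor that defines mESCs, lay between 283 and 515 CPM (read counts scaled to the library total).

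H3K27me3, trimethylation of lysine 27 on histone H3, is deposited by Polycomb repressive complex 2 (PRC2), whose core includes SUZ12 and whose accessory subunits include MTF2, EPOP, JARID2 and AEBP2. PRC1, with RING1A or RING1B as its catalytic subunit, places ubiquitin on histone H2A (H2AK119ub1), which JARID2 and AEBP2 recognise. In mESCs both complexes concentrate at CpG islands, at the promoters of silent developmental genes, and H3K27me3 also spreads at lower density over intergenic chromatin.

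Sequence windows illustrate the CpG content of some of these regions and of a promoter with SUZ12. They were picked as examples by different rules, and values over all peaks follow them. Below are the central 300 bp of the 3 highest-scoring new peaks, of a new peak over a coding promoter where Polycomb proteins were also called (the densest in CpG of its kind), and, for contrast, of the highest-scoring SUZ12 peak of RING1B I53S +OHT cells over a coding promoter inside one of the other H3K27me3 peaks. All are on the + strand of mm10, 5′ to 3′, and capitals mark each CpG dinucleotide.
chr7:100144987-100145286, intergenic, its peak 12.3 kb from the start of Lipt2: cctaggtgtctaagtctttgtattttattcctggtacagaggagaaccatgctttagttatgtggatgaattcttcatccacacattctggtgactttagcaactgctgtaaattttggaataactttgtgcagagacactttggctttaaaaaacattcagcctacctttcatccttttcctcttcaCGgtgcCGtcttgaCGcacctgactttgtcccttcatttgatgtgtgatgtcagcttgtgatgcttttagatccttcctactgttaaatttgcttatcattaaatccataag
chr6:146300838-146301137, intron of Itpr2: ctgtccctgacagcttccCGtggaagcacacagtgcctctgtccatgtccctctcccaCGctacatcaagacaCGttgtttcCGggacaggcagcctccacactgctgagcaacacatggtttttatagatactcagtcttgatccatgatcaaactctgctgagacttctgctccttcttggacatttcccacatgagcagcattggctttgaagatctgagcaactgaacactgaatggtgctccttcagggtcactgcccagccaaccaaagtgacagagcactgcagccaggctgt
chr11:71745962-71746261, intergenic, its peak 3.10 kb from the start of Wscd1: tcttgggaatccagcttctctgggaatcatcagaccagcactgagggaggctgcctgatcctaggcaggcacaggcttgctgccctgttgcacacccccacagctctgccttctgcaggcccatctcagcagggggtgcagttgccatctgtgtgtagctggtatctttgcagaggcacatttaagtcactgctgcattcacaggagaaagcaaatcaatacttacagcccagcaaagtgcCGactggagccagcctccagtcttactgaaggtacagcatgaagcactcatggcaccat
chr5:36748054-36748353, within the coding exon of Bloc1s4: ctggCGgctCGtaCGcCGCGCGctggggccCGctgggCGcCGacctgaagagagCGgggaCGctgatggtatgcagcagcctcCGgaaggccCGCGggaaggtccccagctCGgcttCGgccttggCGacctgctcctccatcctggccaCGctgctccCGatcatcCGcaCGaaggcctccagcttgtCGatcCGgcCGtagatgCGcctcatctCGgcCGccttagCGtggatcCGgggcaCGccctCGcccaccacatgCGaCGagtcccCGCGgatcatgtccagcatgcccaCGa
chr5:33432754-33433053, promoter of Nkx1-1, not a new peak: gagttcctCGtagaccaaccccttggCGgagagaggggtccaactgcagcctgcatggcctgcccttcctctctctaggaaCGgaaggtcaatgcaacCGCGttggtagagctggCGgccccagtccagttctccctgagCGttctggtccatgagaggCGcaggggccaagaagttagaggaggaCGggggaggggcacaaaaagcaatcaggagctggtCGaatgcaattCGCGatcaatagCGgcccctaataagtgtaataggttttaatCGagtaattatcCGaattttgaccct

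The 3 intergenic or intronic windows hold 3, 4 and 1 CpG, the Bloc1s4 window holds 36, and the Nkx1-1 window 15. The first kind was common among the new peaks and the Bloc1s4 kind was rare. Over all 8519 central windows the median was 2 CpG, 1144 (13.4%) had none, and 75 (0.880%) had 10 or more. Over all 10390 other peaks the median was 3 CpG, 7.63% had none and 10.3% had 10 or more. Among the 1903 of them that held a SUZ12 peak, the median was 8 and 41.9% had 10 or more.

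New peaks were short and low in score. Their median width was 940 bp (range 367 to 7536), against 1683 bp for the other peaks, and they covered 9.84 Mb, against 22.3 Mb. The MACS2 score, −log10 of the p-value against the input, had a median of 11.7 (range 10.0 to 29.6) where the smallest score in any list was 10, and 14.8 with a highest of 95.6 among the other peaks. A score of 20 or more was reached by 135 new peaks (1.58%) and by 2253 other peaks (21.7%). As width and score differed, a second comparator was drawn from the other peaks: the 4330 whose width and score lay between the 10th and 90th percentiles of the new peaks (474 to 2102 bp, 10.3 to 15.6).

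The comparator lists also differed among themselves. Of the 18909 peaks of RING1B I53S +OHT, 11757 (62.2%) overlapped none of Parental -OHT and 9031 (47.8%) none of RING1B WT +OHT. RING1B WT +OHT, where RING1B is catalytically active, had 7037 peaks (35.6%) that overlapped none of Parental -OHT, and Parental +OHT had 5909 (41.4%). The rule applied to Parental +OHT in place of RING1B I53S +OHT found 3468 of 14283 peaks (24.3%). With 1 library per condition none of these differences could be tested, and the spread that a repeat library would give is unknown.

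Many new peaks lay close to comparator H3K27me3 peaks. The gap to the nearest comparator peak had a median of 9650 bp, with a 95% interval of 9267 to 10175 bp over peaks. It was under 1 kb for 990 peaks (11.6%), under 5 kb for 3109 (36.5%), under 10 kb for 4312 (50.6%) and under 100 kb for 7672 (90.1%). At the boundary of the rule, the new peaks chr18:80475486-80477219, chr11:49914379-49915174 and chr2:180759662-180760129 missed a comparator peak by 1, 3 and 3 bp. On its other side, chr13:73660262-73663560, chr14:63069142-63069962 and chr11:96654074-96654844 were not taken because they shared 3, 4 and 7 bp with one. A gap under 100 bp was found for 24 new peaks, and an overlap under 100 bp for 33 of the others.

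**Figure D1:**
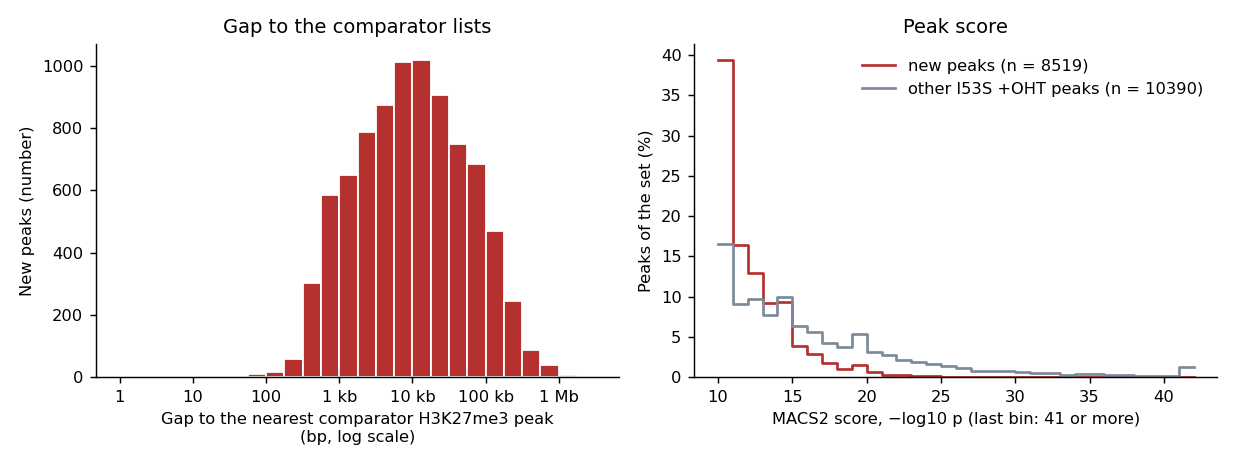
The left panel counts the new peaks by their gap to the nearest comparator H3K27me3 peak (bp, log scale), and the right panel gives the share of peaks (%) by MACS2 score (−log10 p) for the new and the other peaks. The median gap is 9650 bp, and the new peaks crowd at the lowest scores, with a median of 11.7 against 14.8.

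The new peaks were uneven along the genome. Chromosome 11 held 1467 of them (17.2%, 12 per Mb) and chromosome 6 held 899 (10.6%, 6.0 per Mb), against 0.912 to 4.33 per Mb on the other 17 autosomes, whose median was 2.7. The X chromosome held 6, and Y had no peak in any of the 4 lists. On X the RING1B I53S +OHT list had only 9 peaks, of which 66.7% were new. Parental -OHT had 140 there, RING1B WT +OHT 94 and Parental +OHT 23. Chromosomes 11 and 6 differed in the share of their RING1B I53S +OHT peaks that were new. Chromosome 11 was peak-rich in every list, with 4109 peaks in RING1B I53S +OHT, 3311 in Parental -OHT, 3852 in RING1B WT +OHT and 3148 in Parental +OHT, and 35.7% of its RING1B I53S peaks were new, the lowest share of any autosome. Chromosome 6 had 1665 peaks in RING1B I53S +OHT against 1109, 1262 and 985 in the same order, and 54.0% of the 1665 were new. The RING1B I53S +OHT list was the longest on chromosome 6, as it was on chromosomes 7 and 11. The ratio of RING1B I53S +OHT to Parental -OHT peaks was 1.5 on chromosome 6 and 1.24 on chromosome 11, and ran from 0.695 to 1.24 on the other autosomes.

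On chromosome 14 no RING1B I53S +OHT peak, new or other, lay beyond position 79770649, over a stretch of 45.1 Mb where the other lists held 88 (Parental -OHT), 67 (RING1B WT +OHT) and 50 (Parental +OHT) peaks. RNA moved with this gap. The 75 tested genes of that stretch had a median log2 difference of -0.87 between RING1B I53S -OHT and Parental -OHT, and 65 of them were below 0, whereas the median over all 18154 tested genes was 0.01. With OHT against RING1B WT +OHT the median there was -0.93. On chromosomes 6 and 11 the median RNA difference without OHT was 0.01 for each. The part of chromosomal differences between the clones in the number of new peaks was not tested.

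**Figure D2:**
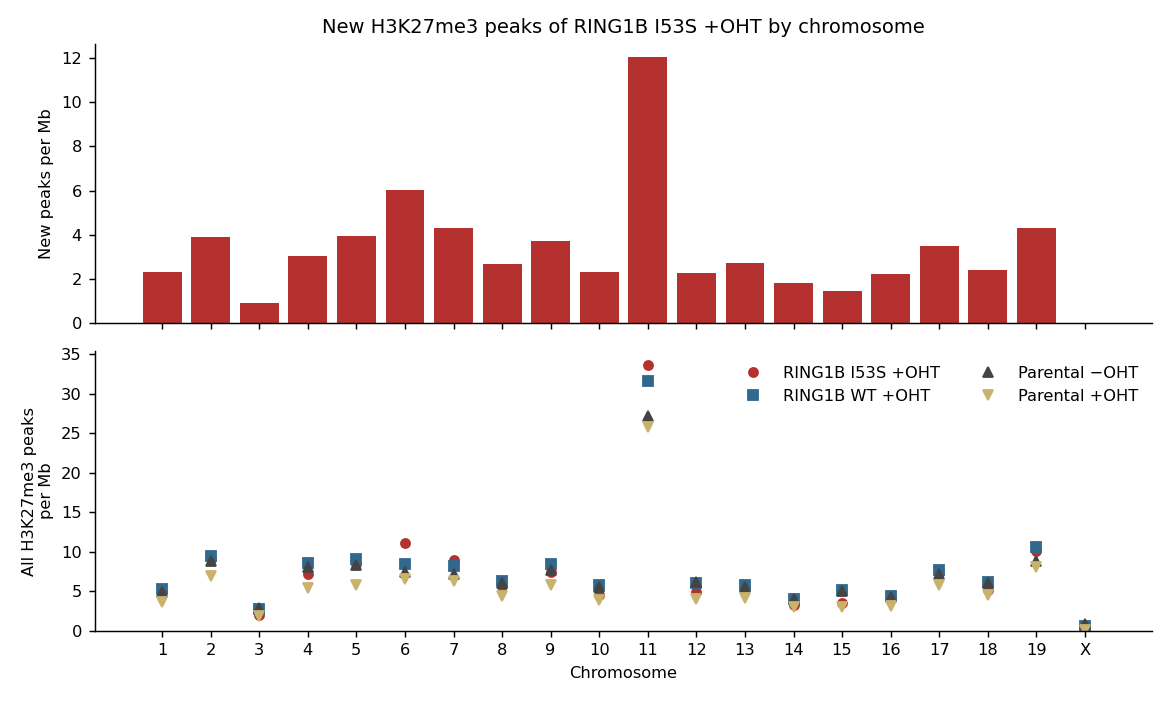
New peaks per Mb (bars, upper panel) and all H3K27me3 peaks per Mb in the 4 lists (points, lower panel) by chromosome. Chromosome 11 stands highest in all 4 lists. The RING1B I53S +OHT list lies above the others on chromosomes 6, 7 and 11, on chromosome 6 at 11.1 peaks per Mb against 6.58 to 8.43.

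New peaks also came in runs. Joined over gaps under 10 kb, they formed 6008 runs, of which 4411 were a single peak, and 88 runs had 5 or more and held 536 new peaks (6.29%). Of these 88 runs, 23 were on chromosome 11 and 16 on chromosome 6. The longest by count held 12 new peaks over 69.5 kb at chr11:121735656-121805171, 25.1 kb from Ptchd3. Another 11 lay over 63.5 kb inside Kcnip1, which encodes a potassium channel interacting protein, and 11 over 48.4 kb across the olfactory receptor genes Olfr1378, Olfr1377 and Olfr51. A run of 10 lay inside Ssh2, a phosphatase gene of the actin cytoskeleton, one of 10 across the amino acid transporter genes Slc6a18 and Slc6a19, and one of 10 at Myt1, which encodes a neural zinc finger factor. Counted per gene, and picked after their values were seen, Iqsec1 had 32 new peaks along 333 kb, Ssh2 had 26 along 244 kb and Kcnip1 had 25 along 364 kb. More were held only by Gm20388, with 39 under a model that spans 4435 kb and is at 0 CPM in all 12 RNA libraries. Iqsec1, Ssh2 and Kcnip1 also each had another RING1B I53S +OHT peak at its promoter.

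Relative to genes, new peaks were spread much as the genome is, whereas other peaks gathered at promoters. A promoter here reaches 2.5 kb to either side of an annotated start, and places were taken in the order promoter, exon, intron, intergenic. A promoter was touched by 1595 new peaks (18.7%, 95% Wilson interval 17.9 to 19.6), an exon by 625 (7.34%), an intron by 2323 (27.3%), and 3976 (46.7%) were intergenic. Among the other peaks 48.6% touched a promoter, and 42.1% among those of like width and score. Promoters of protein coding genes were touched by 965 new peaks (11.3%), against 41.4% of the other peaks and 34.7% of those of like width and score. By its midpoint, which takes width out of the count, a new peak was in a promoter in 14.5% of cases, in an intron in 33.5% and intergenic in 49.2%. The bases of the genome fall 13.0%, 33.5% and 51.3% into these classes. The midpoint of other peaks of like width and score was in a promoter in 36.1%. The intervals cover the number of peaks only, and neighbouring peaks are not independent.

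In base composition the new peaks were poorer in CpG than the other peaks. Their median GC content was 46.1%, against 48.9% in the other peaks and 41.7% in the genome. The median CpG density was 7.79 per kb, with 11.6 in the other peaks, 11.3 in those of like width and score, and 8.26 in the genome. The observed over expected CpG ratio was 0.150, against 0.202, 0.196 and 0.190 in the same order. Repeats, in lower case in the reference, made up a median of 18.6% of a new peak, 14.6% of another peak and 36.4% of the genome's bases. The 3468 new peaks of Parental +OHT had a median CpG density of 8.97 per kb and 24.8% of them touched a promoter. Both sets were chosen against the same comparator lists.

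**Figure D3:**
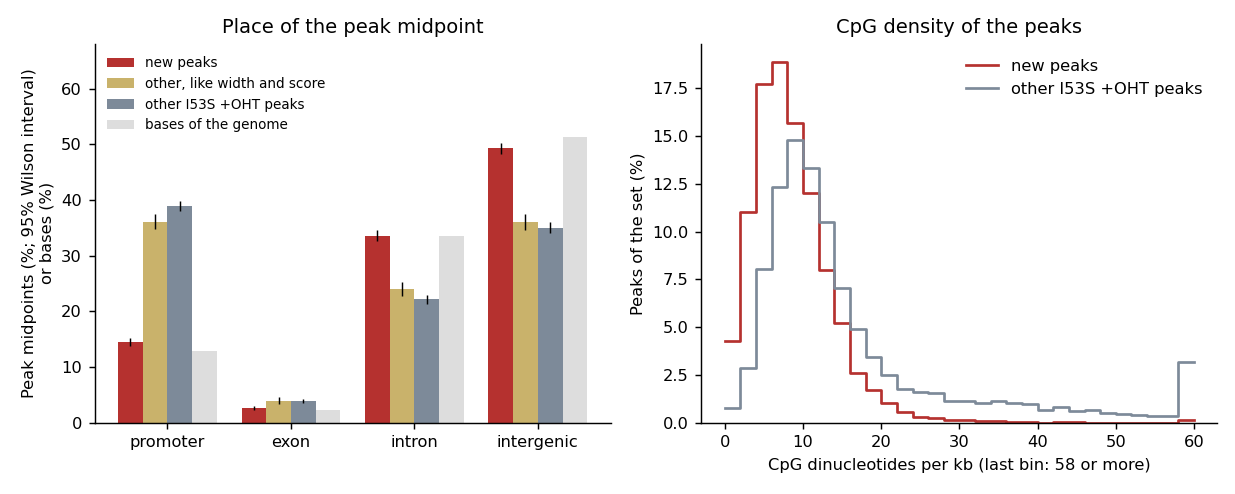
The left panel gives the share of peak midpoints (%, bars with 95% Wilson intervals) in promoters, exons, introns and intergenic sequence beside the share of genome bases, and the right panel the distribution of CpG per kb over peaks (% of the set). New peaks follow the bases of the genome in the left panel (14.5% against 13.0% in promoters) and lie to the left of the other peaks in CpG density.

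Of the 10 highest-scoring new peaks 1 touched a promoter, and of the 10 longest 4 did, beside 18.7% of all new peaks and 25.2% of those with a score of 20 or more. The highest in score spans chr7:100143331-100146942 (score 29.6), lies 2720 bp from a comparator peak and was called in none of the other libraries. The next, in the intron of Itpr2, an inositol trisphosphate receptor gene (score 28.1), was 118857 bp from a comparator peak and was also called in Parental +OHT. The third, near Wscd1 (score 27.2), lay 876 bp from a comparator peak and was called nowhere else. The one of these 10 that touched a promoter was at Atp6v0a1, a subunit gene of the vacuolar proton pump, with a score of 24.8. The longest new peak covered 7536 bp at chr6:126850607-126858142 over Akap3 and Ndufa9, 483 bp from a comparator peak, and was also called in Parental +OHT and in MTF2 KO RING1B I53S +OHT. Ndufa9, a gene of respiratory complex I, was strongly expressed, at 296 and 412 CPM in RING1B I53S -OHT and 195 and 289 CPM with OHT. The other long ones over promoters were at Lsp1, AC158605.1 and the pair Zfp51 and Gm49691. A further 6742 bp lay inside Kcnq1, an imprinted potassium channel gene that held 15 new peaks in all.

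Parental +OHT, the other condition with MTF2 and without RING1B catalysis, shared more of the new peaks than any other H3K27me3 list outside the rule. All those other lists are of MTF2 KO cells and shorter, with 332 to 7852 peaks against 14283. How many new peaks Parental +OHT shared depended on their score. Of the 8519, 1636 (19.2%, interval 18.4 to 20.1) overlapped an H3K27me3 peak there, against 73.7% of the other peaks and 59.4% of those of like width and score. The comparator of like width and score is itself chosen for overlap with untreated or RING1B WT peaks, so its shares describe recurrent peaks. The share rose with the score of the new peak, from 10.9% in the lowest of 4 equal score classes to 14%, 19.4% and 32.4% in the highest. It was 60% for the 135 new peaks with a score of 20 or more. When the rule was applied with a score of 20 or more asked of all 3 lists, 784 peaks were new and 82.9% of them overlapped a peak of Parental +OHT. It was 24.3% for gaps under 5 kb, 17.4% from 5 to 50 kb and 13.9% beyond. New peaks over promoters were present in Parental +OHT in 25.6% and those in introns in 15.3%. On chromosome 6 the share was 19.0%, on chromosome 11 it was 23.0% and elsewhere 18.3%. The 1636 recurrent new peaks had a median width of 1303 bp and a median score of 13.0, and the remaining 6883 had 880 bp and 11.7.

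In MTF2 KO cells fewer new peaks were called. MTF2 KO RING1B I53S +OHT had 2730 H3K27me3 peaks in all, and 460 new peaks (5.4%) overlapped one, against 5.4% of the other peaks of like width and score and 13.9% of all the other peaks. Of these 460, 202 (43.9%) were on chromosome 11, where 13.8% of the new peaks recurred, while 6.56% did on chromosome 6 and 3.23% elsewhere. MTF2 KO Parental -OHT cells, with 7852 peaks, overlapped 121 new peaks (1.42%), against 24.8% of the other peaks of like width and score. MTF2 KO RING1B WT +OHT overlapped 16 (0.188%), against 11%. MTF2 KO Parental +OHT, a list of 332 peaks, overlapped 22 (0.258%), against 0.554%. Called in both Parental +OHT and MTF2 KO RING1B I53S +OHT were 187 (2.20%).

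PRC2 itself was rarely called on the 8519 new peaks. SUZ12 of RING1B I53S +OHT cells had 3475 peaks, and 23 new peaks (0.270%, interval 0.180 to 0.405) overlapped one, against 18.3% of the other peaks and 8.36% of those of like width and score. MTF2, the accessory subunit that binds unmethylated CpG-rich DNA, was called on 23 new peaks (0.270%) in one library and 107 (1.26%) in the other, which held 3091 and 7546 peaks. In the same libraries 7.81% and 18.1% of the other peaks of like width and score had MTF2. At 48 h of OHT, MTF2 was on 181 new peaks (2.12%). EPOP was on 21 (0.247%), and JARID2 on 2 and 0 in its 2 libraries, against 7.71%, 2.33% and 0.462% of the other peaks of like width and score. AEBP2, with 50 peaks in all, was on 4 new peaks and on 0 of those 4330. Under the rule with a score of 20 or more in all 3 lists, which drops the low-scoring comparator peaks, SUZ12 was on 3.32% of the 784 new peaks and MTF2 on 15.6%. Untreated Parental cells had MTF2 on 113 new peaks (1.33%), SUZ12 on 13 and JARID2 on 27, and 41.6%, 21.3% and 33.5% of the other peaks of like width and score carried them. By the rule new peaks have no H3K27me3 peak in these untreated cells, so this contrast is partly set by the choice of peaks.

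PRC1 and its mark were likewise called on few new peaks. The rule left out places with an H3K27me3 peak in Parental -OHT or RING1B WT +OHT, whereas every other peak overlaps one. Low shares of Polycomb proteins and H2AK119ub1 in those conditions, and the contrast with the other peaks, are therefore partly set by the rule. H2AK119ub1 was called on 10 new peaks (0.117%) in untreated Parental cells, on 38 (0.446%) in RING1B WT +OHT and on 6 (0.0704%) in RING1B I53S +OHT. Of the other peaks of like width and score, 25.3%, 31.0% and 5.33% carried it. RING1B was on 1 new peak in Parental -OHT, 0 in RING1B WT +OHT and 3 in RING1B I53S +OHT, against 12.3%, 9.33% and 0.577% of the other peaks of like width and score. CBX7, a reader of H3K27me3 in PRC1, was on 0, 0 and 1 new peak, against 17.7% and 8.64% of those other peaks in the first 2 conditions and 0 of 4330 in RING1B I53S +OHT, where the list held 32 peaks. Over 61 libraries of Polycomb proteins or H2AK119ub1, 336 new peaks (3.94%) were touched by any peak, against 51.1% of the other peaks of like width and score. No new peak and no other peak overlapped a peak of the 4 input libraries, all of MTF2 KO cells, which held 9 to 19 peaks each. Lists so short cannot serve as a check on the input.

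**Figure D4:**
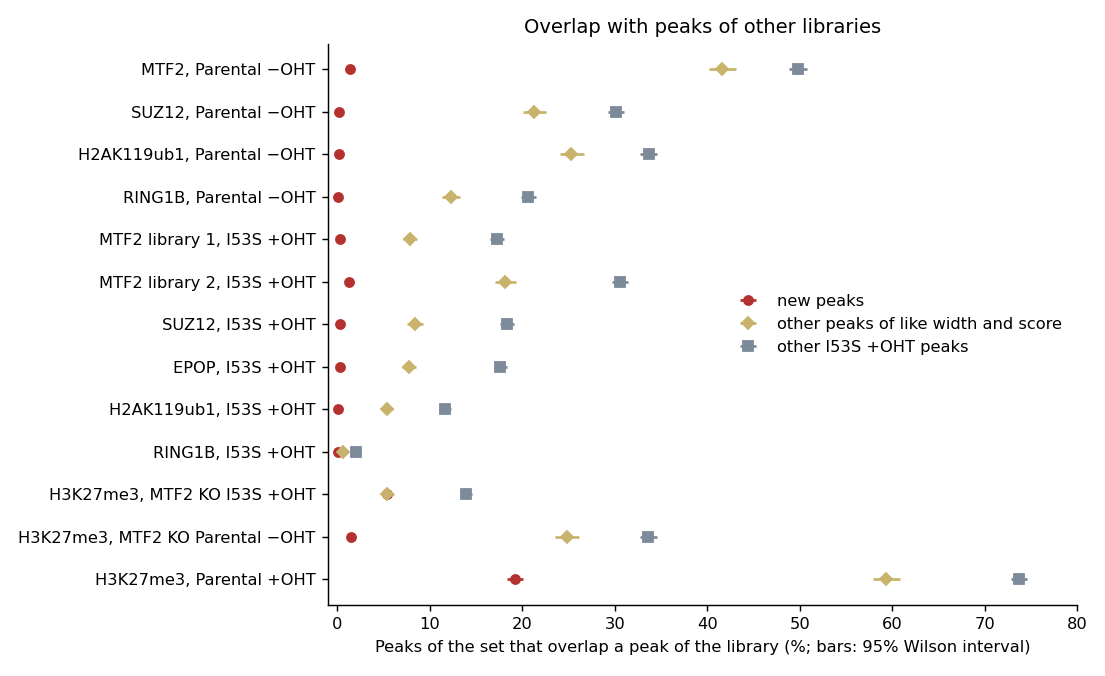
Share of peaks (%, with 95% Wilson intervals) that overlap a peak of each named library, for the new peaks, the other peaks and the other peaks of like width and score. The new peaks sit near 0 in every row of PRC2, PRC1 and H2AK119ub1, at 0.270% for SUZ12 of RING1B I53S +OHT, and reach 19.2% for H3K27me3 of Parental +OHT. The rule excludes places with an H3K27me3 peak in Parental −OHT, so the contrast in the rows of that condition is partly set by it.

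A small group of new peaks did resemble Polycomb targets. The 109 with SUZ12 or MTF2 in RING1B I53S +OHT had a median of 15.4 CpG per kb and 55 of them (50.5%) touched a promoter, against 7.75 per kb and 18.3% for the rest. Of these 109, 34 had a Polycomb peak in 10 or more libraries, with 27 of them over promoters and a median of 35.0 CpG per kb. These 34 included the promoters of Bloc1s4, a subunit gene of a complex for lysosome-related organelles whose sequence is printed above, of Mkrn3, an imprinted gene, and of Glb1l. The Mkrn3 peak (score 19.3) was the last in a run of 8 new peaks over 34.9 kb. Mkrn3 RNA was 15.5 and 16.9 CPM in RING1B I53S -OHT and 5.62 and 8.78 CPM with OHT, a log2 fold change of -1.16 (SE 0.285, edgeR adjusted p = 0.00468) that fell short of the 1.5 set for a call. At Chdh, the choline dehydrogenase gene, a new peak with MTF2 (score 18.1) lay in the promoter, and RNA went from 0 and 0.192 CPM to 4.41 and 4.99 CPM.

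Gene lists of known function are read against all 21923 protein coding genes, of which 4.10% had a new peak at the promoter and a further 5.57% in the body alone, so that a short list would hold few or none at these shares. None of the 39 Hox genes had a new peak at the promoter or in the body, and 37 had another RING1B I53S +OHT peak at the promoter. No gene had a new peak in the lists of PRC2, of H3K36 and DNA methylation, of pluripotency, primitive endoderm, trophoblast, mesoderm and neural genes, which hold 4 to 16 genes each. Developmental genes outside these lists did have new peaks, among them Wt1 at the promoter and Pax9, Prox1 and Fgfr2 in the body. Of 19 PRC1 genes, Pcgf5 and Phc2 had 1 each in the body, and of 5 fibroblast genes Col1a2 had 1. Of the 56 clustered protocadherin genes, 6 (10.7%) had a new peak at the promoter and 18 (32.1%) in the body, where gene models of the clusters overlap and 1 peak can count for several genes. Olfactory receptor genes had one at the promoter in 49 of 1134 cases (4.32%), near the 4.10% of all genes, and another peak at the promoter in 19 (1.68%). Of 394 Zfp genes 17 (4.31%) and of 330 vomeronasal receptor genes 2 had a new peak at the promoter.

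At the level of RNA, genes at new peaks were low before OHT, and their median level was not lower with OHT. The promoters with a new peak belonged to 1577 gene names, 898 of them protein coding, and a further 1613 genes (1221 protein coding) had one in the body alone. The median level of the 898 was 0.478 and 0.368 reads per kb of exon scaled to library size (RPKM) in the RING1B I53S -OHT libraries and 0.814 and 0.875 with OHT. The RING1B WT line had 0.410 and 0.336 RPKM without and 0.572 and 0.564 with OHT. Genes with a new peak in the body stood at 0.271 and 0.217 RPKM in RING1B I53S -OHT and at 0.722 and 0.690 with OHT. Over all protein coding genes these libraries had medians of 1.10, 0.927, 1.70 and 1.63 RPKM. In bulk RNA, more expressing cells and more RNA per cell cannot be told apart.

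Markers of cell identity moved with OHT as well. The summed level of the 8 pluripotency markers was 5215 and 6312 CPM in RING1B I53S -OHT and 3525 and 3454 CPM with OHT, 5234 and 6369 against 3244 and 3328 CPM in Parental cells, and 5584 and 6798 against 5289 and 5472 CPM in RING1B WT. Of these 8, Zfp42 was called lower with OHT in RING1B I53S cells, at 567 and 822 CPM before and 206 and 199 CPM after, while Nanog was at 325 and 546 CPM before and 222 and 168 CPM after, and Sox2 at 173 and 188 CPM before and 92.3 and 60.3 CPM after. Called higher were 4 of 5 primitive endoderm markers, 4 of 5 trophoblast markers, 3 of 4 mesoderm markers, 1 of 4 neural and 1 of 5 fibroblast markers. Only 4 trophoblast, 1 neural and 3 fibroblast markers passed the filter on low counts, and the rest of these lists could not be called. The summed trophoblast level went from 65.4 and 46.8 to 199 and 239 CPM in RING1B I53S cells and from 44.1 and 39.7 to 91.8 and 114 CPM in RING1B WT, and the mesoderm level from 5.25 and 3.84 to 26.6 and 28.1 CPM and from 4.17 and 3.62 to 8.15 and 8.47 CPM. Of the 6 lists only the fibroblast one held a marker at 0 in every library, Lum. The part of such shifts in the RNA of genes at new peaks was not tested.

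Calls were made across 18154 tested genes with edgeR, at a log2 fold change of 1.5 or more in either direction and an adjusted p under 0.05. Of the promoter genes, 639 passed the filter on low counts, and 965 of the body genes. With OHT in RING1B I53S cells, 101 promoter genes (15.8%) rose and 5 (0.782%) fell, where 12.8% of all tested genes rose and 1.04% fell. Of the body genes, 324 (33.6%) rose and 4 fell. In Parental cells, 18.6% of the promoter genes rose and 7 genes fell with OHT, and 343 body genes (35.5%) rose and 11 fell, beside 15.1% and 1.83% of all genes. In RING1B WT cells the counts were 12 and 0 for promoter genes and 37 and 0 for body genes, beside 1.34% and 0.0386%. The 0 that fell there compares with 23 promoter and 24 body genes that were lower at an unadjusted p under 0.05, and DESeq2 called 0 as well. The OHT effects of the 3 lines are each measured against their own untreated cells. Without RING1B I53S -OHT replicate 2, 68 promoter genes were called in RING1B I53S in place of 106, and without RING1B WT -OHT replicate 2, 0 promoter and 3 body genes were called in RING1B WT, or 1 and 2 without RING1B WT +OHT replicate 2.

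Between lines with OHT, 41 promoter genes were higher in RING1B I53S than in RING1B WT and 3 lower, beside 6.02% and 0.6% of all genes, and 144 body genes were higher and 2 lower. Without OHT, no promoter or body gene differed between RING1B I53S and Parental cells, beside 0.0881% and 0.0661% of all genes. At an unadjusted p under 0.05, 15 promoter genes were higher and 13 lower there, 42 body genes higher and 22 lower, and DESeq2 called none. The difference of the OHT effects between RING1B I53S and RING1B WT cells passed for 1 promoter gene in the higher and 2 in the lower direction, and for 6 body genes higher and 0 lower, beside 0.209% and 0.138% of all genes. For that 0, 16 body genes were lower at an unadjusted p under 0.05 and DESeq2 called 1. Without RING1B WT +OHT replicate 1, 14 promoter and 37 body genes were called between the lines with OHT, in place of 44 and 146, and without its replicate 2, 95 body genes. Of the difference at promoters, 3 genes were higher and 1 lower without RING1B WT -OHT replicate 2, in place of 1 and 2. The 3 and 6 genes of the difference ran over 1 to 4 and 0 to 6 as each of the 8 libraries was left out. These comparisons share the RING1B I53S +OHT or RING1B WT +OHT libraries with the OHT effects above.

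Rises were more frequent where another H3K27me3 peak lay at the promoter, but were not confined to such genes. Of the 160 tested promoter genes that also had another RING1B I53S +OHT peak at the promoter, 56 (35.0%) rose with OHT in RING1B I53S cells, and of the 479 without one, 45 (9.39%). The body genes split likewise, with 210 of 453 (46.4%) and 114 of 512 (22.3%). Genes with such another peak and no new peak rose in 884 of 2217 cases (39.9%), and genes with neither in 1014 of 14333 (7.07%). Body genes without another peak, at 22.3%, thus rose more often than genes with neither. The part of gene length and of expression level in the share of body genes was not tested.

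Genes that fell with a new peak at the promoter were 5 in all. Aoah, which encodes acyloxyacyl hydrolase, an enzyme that inactivates bacterial lipopolysaccharide, stood at 35.3 and 41.2 CPM in RING1B I53S -OHT and at 2.31 and 1.81 CPM with OHT. The libraries did not overlap, and the log2 fold change was -4.22 (SE 0.284, edgeR adjusted p = 9.17e-09). In Parental cells Aoah was at 48.3 and 47.3 CPM without and 1.71 and 2.83 CPM with OHT, although no H3K27me3 peak of Parental +OHT met the new peak. In RING1B WT cells it was at 48.9 and 66.1 CPM and 28.8 and 28.1 CPM. The new peak spans chr13:20795297-20795909, close to the start of the gene, has a score of 11 and lies 321 kb from a comparator peak.

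Myo1f, a class I myosin gene of immune cells, had new peaks at chr17:33555511-33557403 (score 16.5) and chr17:33557903-33559223 (score 11), 156 and 159 kb from a comparator peak, and the first was also called in Parental +OHT. Its RNA was 24.9 and 36.6 CPM in RING1B I53S -OHT and 8.63 and 8.70 CPM with OHT (log2 -1.82, SE 0.247, edgeR adjusted p = 2.31e-05). Parental cells went from 28.8 and 32.0 to 7.77 and 6.14 CPM, and RING1B WT cells from 27 and 29.8 to 25.3 and 21.8 CPM, without a call in RING1B WT (edgeR adjusted p = 0.633). The gene 1700019D03Rik had a pair of new peaks, 152 and 155 kb from a comparator peak. They lay at an annotated start inside the gene, far from its outermost start at chr1:53020179. Its RNA went from 69.8 and 79.4 to 25.6 and 20.8 CPM in RING1B I53S cells and from 57.5 and 46.3 to 28.7 and 25.9 CPM in RING1B WT. Brd3os, with 8.96 and 10.9 CPM before and 2.21 and 4.05 CPM after OHT, and Sgk2, a kinase gene with 5.18 and 7.58 CPM before and 1.81 and 2.41 CPM after, completed the group. Sgk2 also had another RING1B I53S +OHT peak at its promoter.

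The body genes that fell were Crebrf, a regulator of the unfolded protein response, with 3 new peaks and a change from 28.6 and 27.7 to 8.83 and 6.29 CPM in RING1B I53S cells, and Ly6g5c, T2 and Tmem211 with 1 each. None of the 4 had another RING1B I53S +OHT peak at the promoter. Crebrf had a log2 fold change of -1.90 (SE 0.240, edgeR adjusted p = 1.14e-05), and Tmem211 of -2.48 (SE 0.430, edgeR adjusted p = 0.000263). In RING1B WT cells Tmem211 was at 6.31 and 4.94 CPM without and 6.64 and 4.61 CPM with OHT. Ly6g5c, at 1.93 and 3.07 CPM before and 0.401 and 0.517 CPM after OHT, rests on few reads.

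The opposite direction was more frequent, as it was over all tested genes. Of the promoter genes 15.8% rose and 0.782% fell, and of all tested genes 12.8% and 1.04%. The promoter genes that rose with the lowest adjusted p were Tdrkh, a Tudor domain gene of the piRNA pathway, Slc10a4, Acpp, Wt1, Gas7, Greb1l, Mpped1, Add2, Sqor and Edaradd. A promoter here is that of any annotated start, which need not be the outermost start of the gene. For Acpp and Add2, for example, the new peak lay at a start inside the gene, far from the outermost one. Tdrkh went from 5.25 and 5.08 to 26 and 37.0 CPM in RING1B I53S cells (log2 2.61, SE 0.267, edgeR adjusted p = 1.19e-06), from 4.24 and 5.07 to 36.7 and 44.3 CPM in Parental cells and from 3.32 and 3.51 to 9.56 and 11.7 CPM in RING1B WT. Its new peak, 2210 bp at chr3:94419172-94421381, lay 4.28 kb from a comparator peak. Gas7, expressed in neurons, went from 14.4 and 13.1 to 47.7 and 45.1 CPM, and its new peak lay 65.3 kb from a comparator peak. Wt1, a transcription factor gene of kidney and gonad, went from 0.155 and 0 to 5.82 and 5.51 CPM, and it also had another RING1B I53S +OHT peak at its promoter. Of these 10 genes, 5 had such another peak (Wt1, Gas7, Mpped1, Add2 and Edaradd), and the new peak of Sqor, a mitochondrial sulfide oxidase gene, was the only one also called in Parental +OHT.

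Of the body genes, Col4a2, Pax9, Pde3a, Adamts2 and Cacna1g rose with the lowest adjusted p. Col4a2, a basement membrane collagen gene, went from 4.17 and 3.36 to 41.4 and 37.1 CPM in RING1B I53S cells (log2 3.37, SE 0.291, edgeR adjusted p = 2.39e-07) and from 3.21 and 2.96 to 6.64 and 7.35 CPM in RING1B WT cells. Pax9, a paired box factor of pharyngeal and skeletal development, went from 0.0773 and 0.384 to 11.8 and 9.64 CPM and in RING1B WT from 0.749 and 0.548 to 1.51 and 1.49 CPM. Its new peak lay 0.334 kb from a comparator peak. Adamts2, a procollagen protease gene, had 7 new peaks in its body and went from 0.232 and 0.480 to 12.7 and 10.8 CPM. Itpr2, which holds the second strongest new peak printed above and 6 in all, went from 4.94 and 2.59 to 24.8 and 20.1 CPM. Pcgf5, a PRC1 subunit gene, rose from 7.96 and 7.20 to 22.7 and 21.3 CPM (log2 1.53, SE 0.268, edgeR adjusted p = 0.000284), while Phc2 had a log2 fold change of 1.33 and was not called.

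**Figure D5:**
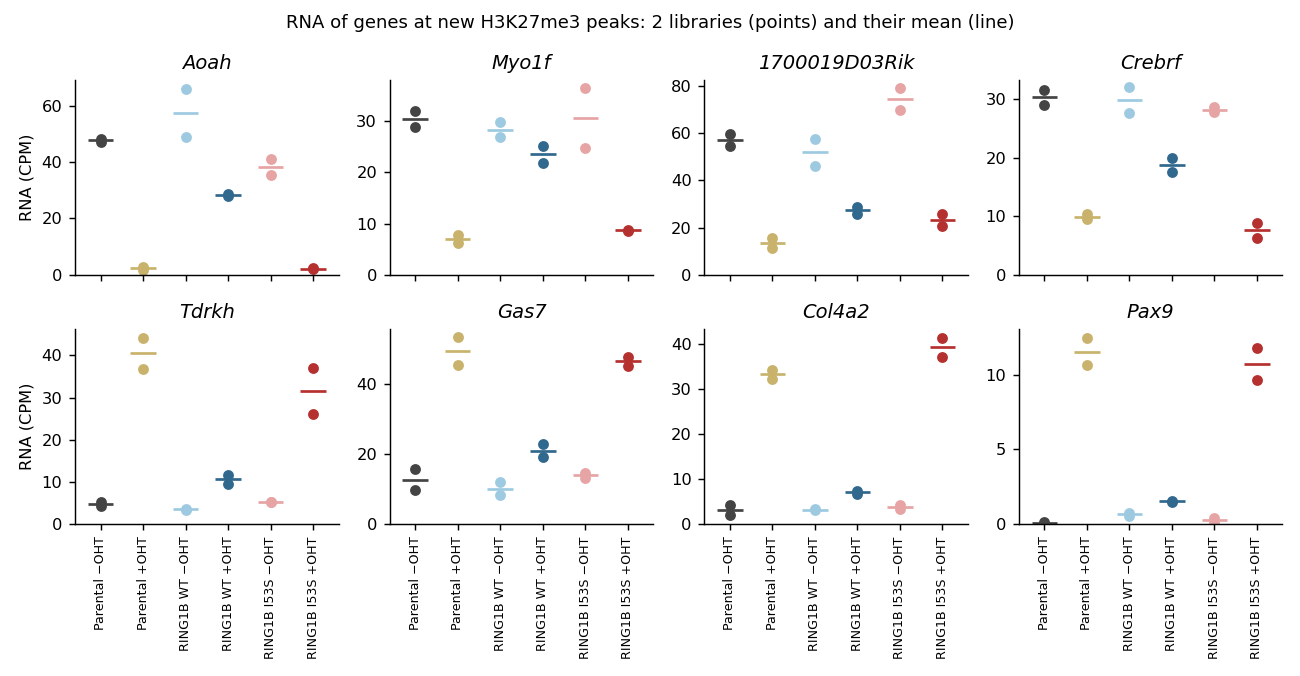
RNA level (CPM) in each of the 12 libraries (points; lines are means of 2 libraries) for 4 genes at new peaks that fell with OHT in RING1B I53S cells (upper row) and 4 that rose (lower row). Aoah, Myo1f and Crebrf reach lower levels with OHT in Parental and RING1B I53S cells than in RING1B WT cells, and 1700019D03Rik is at 25.6 and 20.8 CPM in RING1B I53S +OHT and 28.7 and 25.9 CPM in RING1B WT +OHT.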

How the data were processed

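ChIP-seq peak lists were deposited by the authors as BED files, 1 per library, with the MACS2 score as −log10 p. The authors aligned reads with Bowtie 1.2.2 to mm10, kept unique and deduplicated reads, and called peaks with MACS2 2.1.1 against an E14 input. The lists hold no reads, so depth and signal per peak are unknown and the dm6 spike-in does not enter. Of the peak lists, 73 were read (4 of inputs). RNA counts per gene name were deposited raw by the authors, made with STAR 2.7 and featureCounts on GENCODE M21 without strand. Their normalized counts, comparison tables (log2 fold changes and adjusted p-values) and the Eed fl/fl table were not used, and 1 sample whose labels give no group was left out.

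Overlap meant at least 1 bp. Counts were tested in R 4.3.3 with edgeR 4.0.16 (TMM, filterByExpr, quasi-likelihood, 18154 of 55341 gene names, Benjamini-Hochberg), with DESeq2 1.42.0 as an alternative. On simulated counts of 17167 genes edgeR called 90% of 4-fold and 96% of 8-fold changes in the comparison of RING1B I53S +OHT with -OHT. The changed genes were drawn from those with a mean over 1 CPM, and all genes were given the same spread. These shares therefore do not cover genes at lower levels, as many genes at new peaks are. Peak work and figures used Python 3.11.15, pandas 2.3.3, numpy 2.4.6, scipy 1.17.1 and matplotlib 3.10.9. Sequences and annotation are from mm10 and GENCODE M21, and gene names follow those of the count table. Where genes overlap, reads cannot be told apart without strand.

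Genes were named by rule: of the genes called with OHT in RING1B I53S, up to 10 promoter genes and 5 body genes that rose and as many that fell, taken by lowest adjusted p, genes at the 10 highest-scoring, 10 longest and 10 highest-scoring SUZ12 or MTF2 new peaks, and list genes. The members, lists and tests were chosen with earlier results of these data known. Alternatives were other scores, overlaps, promoter widths and comparators for peaks, and other tools, filters, scaling, thresholds, the replicate block and each library left out for RNA.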

Additional observations from a re-analysis of the deposited data

Results flagged for a closer look

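The OHT effect differed between RING1B I53S and RING1B WT cells for 9 genes at new peaks, by the interaction term of the edgeR fit at a log2 difference of 1.5 or more. Among promoter genes the effect was higher in RING1B I53S for 1 (0.156% of those tested), Acpp, and lower for 2 (0.313%), Aoah and Myo1f. Among body genes it was higher for 6 (0.622%: Fgfr2, Mboat1, Prox1, Col4a2, Pax9 and Podxl) and lower for 0. Over all 18154 tested genes it was higher for 0.209% and lower for 0.138%. Fgfr2, Mboat1, Prox1 and Podxl were named after their values were seen.

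The Aoah difference was -3.20 (SE 0.361, edgeR adjusted p = 0.000132), and that of Myo1f -1.55 (SE 0.340, edgeR adjusted p = 0.0435). Acpp, the gene of prostatic acid phosphatase, had 3.20 (SE 0.685, edgeR adjusted p = 0.0406), with 0.386 and 0.576 CPM in RING1B I53S -OHT and 11.7 and 12.6 CPM with OHT. The largest of the 9 was Pax9 at 4.36, followed by Prox1, a homeobox factor of lymphatic and neural development, at 4.17, from 0.232 and 0.576 to 7.12 and 9.47 CPM in RING1B I53S cells and from 1.28 and 0.768 to 0.906 and 1.49 CPM in RING1B WT. Fgfr2, a fibroblast growth factor receptor gene, had 3.15, but its model under 1 name spans 2961 kb and holds 19 new peaks. Mboat1 had 2.77, Col4a2 2.20 and Podxl 1.56. Both Parental +OHT libraries lay with the RING1B I53S +OHT libraries for Prox1, at 7.26 and 9.07 CPM.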

How the results depend on the processing

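No gene at a new peak was called in opposite directions under any RNA alternative, but the balance of the difference of OHT effects at promoters, 1 gene higher and 2 lower, was 4 and 3 without the filter on low counts and 3 and 1 without RING1B WT -OHT replicate 2. Of the peak values 22 stayed close to the main one and 40 moved, and of the RNA counts 94 stayed within 1.5 times and 40 moved. The number of new peaks and their overlap with other lists moved with the score, and the share over promoters moved most with promoter width. New peaks with a score of 20 or more numbered 135, of which 60% had an H3K27me3 peak in Parental +OHT, 0% SUZ12, 2.22% MTF2, 0% H2AK119ub1 of Parental -OHT and 24.4% an H3K27me3 peak in MTF2 KO RING1B I53S, with 25.2% over promoters and a median gap of 3043 bp. With a score of 20 or more asked of all 3 lists, the number was 784 and the same values were 82.9%, 3.32%, 15.6%, 2.68%, 37.4%, 32.1% and 20595.5 bp. When a peak was new unless covered to 50%, 23.8% were in Parental +OHT, 1.71% had MTF2, 0.238% H2AK119ub1, 6.72% were in MTF2 KO RING1B I53S and 19.8% over promoters, with a gap of 6981 bp. Comparator peaks widened by 1 kb gave 17.9% in Parental +OHT and 12929 bp, and widened by 5 kb they gave 5410 new peaks, 16.3%, 4.9% in MTF2 KO RING1B I53S and 24228.5 bp. The same rule in Parental +OHT gave 3468. Promoters of 1 kb to either side held 9.29% of the new peaks, those of 5 kb 35.4%, and those of protein coding genes alone 11.3%. Over the central 500 bp the median GC was 46.2% and the CpG ratio 0.146. Chosen after seeing the data were the settings without chromosome 11 (H2AK119ub1 0.0567%, MTF2 KO RING1B I53S 3.66%) and without chromosomes 6 and 11 (18.3% in Parental +OHT, 0.0488%, 3.23% and 20.0% over promoters). The cause of these moves was not tested beyond what each setting itself changes.

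For promoter genes, a call on adjusted p alone gave 168 in RING1B I53S, 225 in Parental, 19 in RING1B WT and 80 between the lines with OHT, and 234 body genes there. Promoters of 1 kb, which belonged to 772 gene names in place of 1577, gave 41, 50, 3 and 17 in that order and 1 for the difference of OHT effects. For the settings of this paragraph, shares over all tested genes were not counted, so the counts have no background beside them. Without the filter on low counts, RING1B WT gave 25 promoter and 68 body genes, RING1B I53S -OHT against Parental -OHT 1 and 2, and the difference of OHT effects 7 and 19. With only the groups of the comparison in the fit, RING1B WT gave 7 and 19 and the difference 1 promoter gene. DESeq2 gave 10 body genes for the difference. Leaving out each library in turn gave, for promoter genes, 68 to 92 in RING1B I53S, 92 to 113 in Parental, 0 to 14 in RING1B WT, 14 to 37 between the lines with OHT, 0 to 0 without OHT and 1 to 4 for the difference. For body genes the ranges were 225 to 318, 263 to 331, 2 to 33, 37 to 124, 0 to 0 and 0 to 6. With 1 library left in a group, it was assumed to vary as the others do.

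The labels do not say that a replicate number marks a shared day or batch, and whether the numbers pair the libraries cannot be told from the data: of 15 pairs of groups 9 had a correlation of deviations over 0.1, with a range of -0.00330 to 0.301, at 0.101, 0.0627 and 0.198 between -OHT and +OHT of Parental, RING1B WT and RING1B I53S cells. With the replicate block 112 promoter genes were called in RING1B I53S, and for RING1B I53S -OHT against Parental -OHT 1 body gene in place of 0, and no other count moved by over 1.5 times. Peak lists limit these values: they give no depth, and with 1 H3K27me3 library per condition the number of new peaks has no error of its own.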
